A study of Avicennia germinans with 18 samples.

Results

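Stems of seedlings of the mangrove tree Avicennia germinans were compared between an arid and a humid forest. The comparison used 6 of the 18 libraries of the study, chosen by their labels as the stem libraries, 3 from arid forest seedlings and 3 from humid forest seedlings. All 47821 transcripts of the count table were considered, and 40897 had enough reads to be tested. The forests lie about 5.37 km apart by the labelled positions and are described as contrasting in fresh water, salt, light and temperature. Every seedling of both groups germinated in the field, was moved into a pot of 3 L with mangrove soil, and was kept shaded and watered for 72 hours before sampling. The seedlings of both forests were thus watered before sampling, and 1 place stands for each forest, so that forest type and place cannot be told apart. The leaf and root libraries of the same 6 seedlings serve as a comparison.

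Mangroves take up water from saline soil, which needs strong tension in the water column of the wood. The stem joins root and leaf, conducts this water, stores reserves and, in a seedling, still grows in height and girth. Avicennia keeps out part of the salt at the root and secretes another part through glands of the leaf. The files give transcripts by identifier without gene names, so the roles of single transcripts are not stated here, and stem identity could not be checked against marker genes. Part of the identifiers carry the prefix non_cod, which the files do not explain.

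The arid stems 1, 2 and 3 held 14.3, 12 and 16.7 M reads (M for mega) and the humid stems 1, 2 and 3 held 6.11, 12.9 and 10.1 M. Each group had 3 libraries in all that follows, and levels are given in CPM, counts per M reads after scaling. The arid stems were less alike than the humid ones. The biological coefficient of variation, the relative spread between replicates beyond counting noise, was 84.3% in arid stems and 45% in humid stems. In the leaf and root groups it was between 53.6% and 57.5%. On log2 levels the humid stems correlated with each other with Pearson's r across transcripts between 0.911 and 0.931. Arid stems 1 and 2 correlated with r = 0.813, which was below the r of either with each humid stem (0.817 to 0.864). Arid stems 2 and 3 correlated with r = 0.849. For arid stems 1 and 3 it was r = 0.894, above every pair of an arid and a humid stem (at most 0.865). These values describe the libraries only, since transcripts do not vary independently of each other. Arid stem 1 also held 1279 transcripts with at least 20 reads there and at most 2 reads in all other libraries together. These took 1.29% of its reads, were all removed by the filter on low counts, and entered no test.

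Between the forests, 565 of the 40897 transcripts (1.38%) differed in stems by edgeR's quasi-likelihood test at a Benjamini-Hochberg adjusted p under 0.05. Of these, 235 (0.575%) were higher and 330 (0.807%) lower in arid stems. The higher transcripts had the higher levels, and the lower ones had the larger fold changes and a median under 1 CPM in arid stems. Humid stems had a median level of 17 CPM for the 235 and arid stems one of 63.5 CPM, with a median log2 fold change of 1.86 and quartiles of 1.40 and 3.17. For the 330 the medians were 7.96 CPM in humid stems and 0.82 CPM in arid stems, with a median log2 fold change of -3.61 and quartiles of -5.61 and -2.53. With the 61 of them that had no read in any arid stem set at the limit that a count of 0 allows, the median was -3.48. Over all tested transcripts the median level was 4.81 CPM in humid stems and 4.92 CPM in arid stems, and the median log2 fold change was 0.03. In bulk stems, fewer cells of a type and less RNA per cell cannot be told apart.

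**Figure D1:**
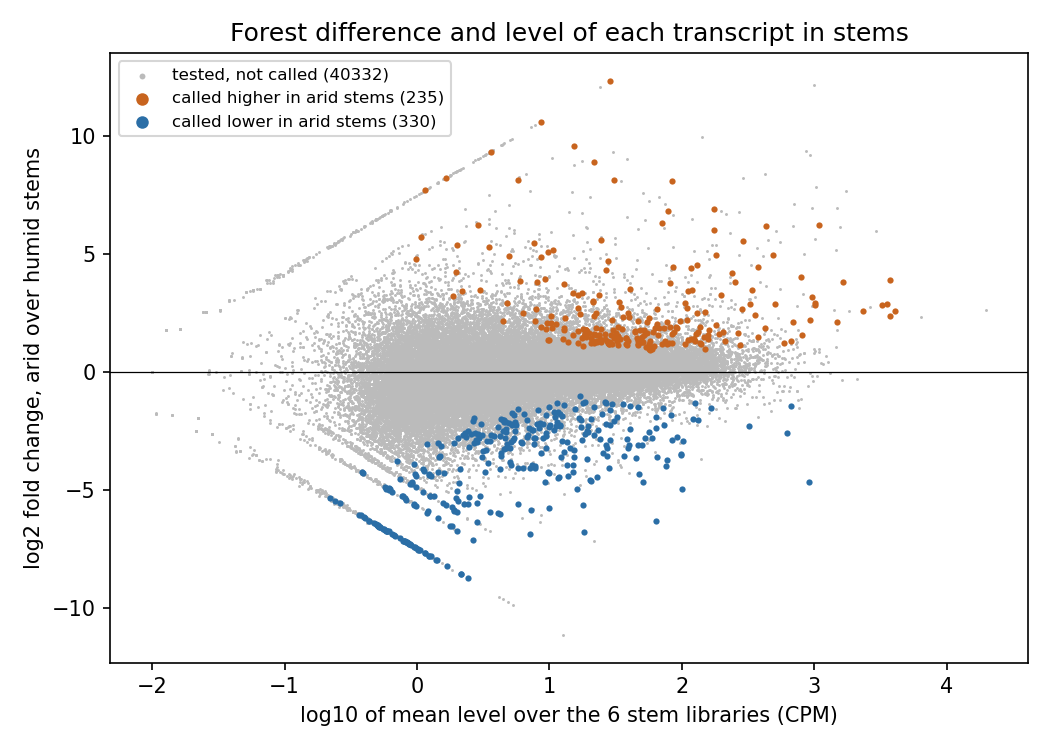
Each point is a transcript, with the log10 of its mean level in CPM over the 6 stem libraries on the x axis and its log2 fold change of arid over humid stems on the y axis. The 235 transcripts called higher (orange) lie mainly to the right of the 330 called lower (blue), and the straight lines at low levels are transcripts with no read in one of the forests.

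The calls were also counted by level. Of 7234 transcripts with a mean under 1 CPM over the stem libraries, 1 was called higher and 70 lower. Between 1 and 10 CPM the counts were 30 and 156 of 17918, and between 10 and 100 CPM they were 138 and 94 of 13879. At 100 CPM and more, 66 of 1866 transcripts (3.54%) were higher and 10 (0.536%) were lower. The mean includes the arid stems, so a higher level there moves a transcript to a higher class and a lower level to a lower one, and the power of the test also depends on the level. The counts are therefore a description, and no relation of level and direction is read from them.

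Over all levels together, transcripts with the prefix non_cod were unevenly divided between the directions. They made up 42 of the 235 higher transcripts (17.9%), 134 of the 330 lower ones (40.6%) and 32.5% of those tested. The division differed between levels, however. Between 1 and 10 CPM, 0.127% of 7875 non_cod transcripts were called higher and 0.94% lower, against 0.199% and 0.816% of 10043 others. Between 10 and 100 CPM, 1.82% of 1155 non_cod transcripts were higher and 1.99% lower, against 0.92% and 0.558% of 12724 others. At 100 CPM and more, 11 of 101 non_cod transcripts (10.9%) were higher and 1 lower, against 55 (3.12%) and 9 of 1765 others. Counts of this kind describe the calls, and no test of the difference was made.

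The calls rested on an estimate of the spread shared by all 6 groups of the study, and the number changed with that choice. A fit of the 6 stem libraries alone called 23 of 36001 transcripts (0.0639%) by edgeR, 8 higher and 15 lower, of which 20 were among the 565. Without arid stem 2 the full fit called 3611 (8.48%), with 557 of the 565 among them. Without humid stem 1, 2 or 3 it called 40, 62 or 32, and without arid stem 1 or 3 it called 92 or 171. All 565 kept their sign under each of the 13 alternatives, and 8 were called under every one of them. In stems the forests did not overlap for 233 of the 235 and all 330, beside 9.54% higher and 13.7% lower of all tested. Leaving out 1 library can hardly reverse the sign of such a transcript, so the kept signs are a description. DESeq2 called 3833 (9.37%), all 565 among them. Upper quartile scaling called 637 (1.56%), of which 25.1% were higher in arid stems, against 41.6% as reported, and its median log2 fold change over all transcripts was -0.12 in place of 0.03. The other way round, limma with sample weights called 907, of which 553 (61%) were higher and 354 lower.

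**Figure D2:**
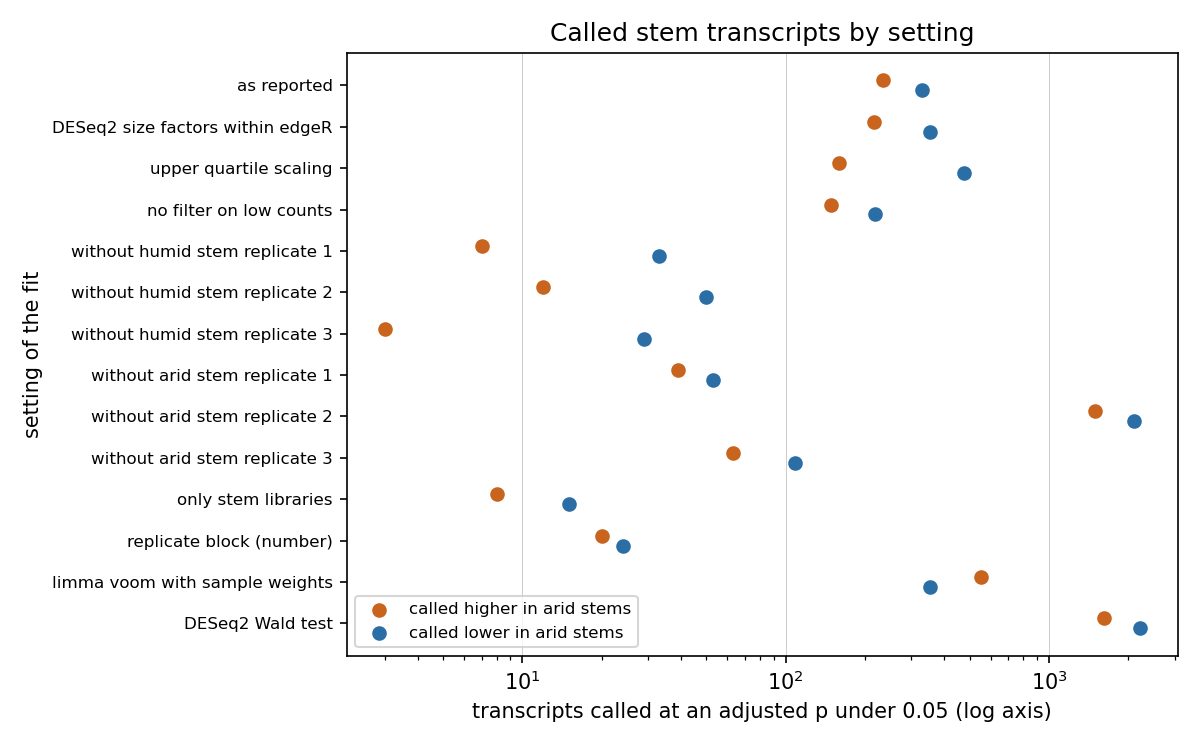
Number of stem transcripts called higher (orange) or lower (blue) in arid stems, on a log axis, for the reported fit and for each of the 13 alternatives. The counts run from 23 with the stem libraries alone to 3833 by DESeq2, and the fit without arid stem 2 is the only one with a library left out that exceeds the reported 565.

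Of the higher transcripts, 2 are given by identifier. Ag_41240 showed the largest difference in mean level among those called with no overlap between the groups. It had 671, 237 and 489 CPM in humid stems 1, 2 and 3 and 6024, 6002 and 8794 CPM in arid stems 1, 2 and 3. Every arid stem stood well above every humid stem, and the arid levels made it the 3rd, 4th and 7th most abundant tested transcript of those libraries, after ranks 48, 327 and 98 in humid stems. Arid over humid stems gave a log2 value of 3.90 with an SE of 0.72 (edgeR adjusted p 0.024). The call was lost without humid stem 1, 2 or 3, at edgeR adjusted p-values of 0.079, 0.080 and 0.10. It was also lost with the stem libraries alone (0.13) and with the replicate number as a block (0.11). The log2 fold changes lay between 3.58 and 4.26 over all alternatives. In leaves it was high in both forests, with 5694, 3421 and 6777 CPM in humid and 1576, 10825 and 4505 CPM in arid libraries 1, 2 and 3. The forests overlapped there, with a log2 fold change of 0.09 and an SE of 0.64 (edgeR adjusted p 1). Arid stems thus had leaf-like amounts of this transcript and humid stems did not. The forest difference in stem exceeded that in leaf by 3.81 on the log2 scale (SE 0.94). This did not pass the test of the difference (edgeR adjusted p 0.37). Humid roots 1, 2 and 3 had 257, 348 and 229 CPM of Ag_41240. Arid roots 1, 2 and 3 had 1638, 303 and 905 CPM, which overlapped the humid range. Roots leaned the same way as stems, by 1.77 on the log2 scale (SE 0.66), without a call (edgeR adjusted p 0.20). Against root, the stem difference was larger by 2.13 (SE 0.92), which was not called either (edgeR adjusted p 0.28).

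The higher transcript with the smallest p-value was non_cod_Ag_20282. It had 1.87, 1.42 and 2.12 CPM in humid stems 1, 2 and 3 and 16.9, 28.2 and 27 CPM in arid stems 1, 2 and 3. The lowest arid stem was several times above the highest humid stem, and the reads behind these values numbered 14, 22 and 25 against 234, 289 and 354. Its log2 fold change in stems reached 3.73 with an SE of 0.42 (edgeR adjusted p 0.0019), and the transcript was called under all 13 alternatives. Leaves again had similar amounts in both forests, with 20.7, 15 and 16.7 CPM in humid and 15.8, 22.1 and 10.7 CPM in arid libraries. In roots it was lower but also higher in the arid forest, with 0.21, 0.579 and 0.152 CPM in humid and 2.85, 2.09 and 3.1 CPM in arid libraries. This is 3.25 on the log2 scale with an SE of 0.50 (edgeR adjusted p 0.008). The values in humid roots 1, 2 and 3 all lie under the level of 3 counts there (0.332, 0.979 and 0.453 CPM). The size of the root difference thus rests on very few humid reads. Stem and root therefore differed between forests in the same direction, while the forest difference in stem minus that in leaf, 3.85 (SE 0.54), missed the threshold (edgeR adjusted p 0.099). Over the alternatives the edgeR, limma or DESeq2 adjusted p of this last difference ran from 2e-08 to 0.56.

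The most abundant transcripts took a larger part of the arid stem libraries. The 10 with the highest mean level in arid stems held 6.12%, 7%, and 10% of the reads of arid stems 1, 2 and 3 and 2.59%, 0.592% and 1.69% of those of humid stems 1, 2 and 3. All 10 lay higher in every arid than in every humid stem, beside 9.54% of all tested. By edgeR 6 of them were called higher, beside 0.575% of all tested, and 4 carried the prefix non_cod, beside 32.5%. They were chosen for their level in arid stems, so their direction is a description only. The top transcript, a non_cod one, took 2.33%, 2.57% and 3.73% of the reads of arid stems 1, 2 and 3 and 1.14%, 0.208% and 0.629% of humid stems 1, 2 and 3. Its groups did not overlap, but with a log2 fold change of 2.63 (SE 0.69) it was not called (edgeR adjusted p 0.063). Within the humid forest 8 of the 10 were highest in humid stem 1, intermediate in humid stem 3 and lowest in humid stem 2. Of the 10 most abundant in humid stems 4 had this order, and the share over all transcripts is not given here. In leaves the 10 most abundant of arid stems held between 0.819% and 2.48% of the reads. In roots they held between 0.778% and 2.16%. Lower shares in the other organs follow in part from the choice by level in arid stems, so they are a description too. The 10 most abundant of humid stems included 4 of these, and held 2.79%, 1.78% and 2.41% of humid and 4.37%, 4.81% and 7.07% of arid stem reads. These 10 had no common direction, with a median log2 fold change of -0.11 and a range from -4.68 to 2.63. By edgeR 2 were called higher and 1 lower, beside 0.575% and 0.807% of all tested. The forests did not overlap for 6, in either direction, beside 9.54% higher and 13.7% lower of all tested.

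Among the lower transcripts, Ag_9542 showed the largest difference in mean level. It had 1481, 1592 and 2199 CPM in humid stems 1, 2 and 3 and 115, 41 and 49.7 CPM in arid stems 1, 2 and 3. It ranked 7, 5 and 3 among the tested transcripts of the humid stems and 1569, 5986 and 5403 in the arid ones. The groups were far apart, at a log2 fold change of -4.68 with an SE of 1.01 (edgeR adjusted p 0.036). The call was lost without humid stem 1, 2 or 3 (edgeR adjusted p 0.10, 0.080 and 0.11) and without arid stem 1 or 3 (0.069 and 0.096). It was also lost with the stem libraries alone (0.056) and with the replicate number as a block (0.091). The log2 fold change stayed between -5.27 and -4.42 over all alternatives. Leaf levels were 1287, 721 and 640 CPM in humid and 266, 26.6 and 42.8 CPM in arid libraries 1, 2 and 3. These groups did not overlap either, and the leaf log2 fold change of -2.98 (SE 0.94) was not called (edgeR adjusted p 0.48). Root levels overlapped, with 715, 918 and 52.7 CPM in humid and 326, 75.2 and 151 CPM in arid libraries. Neither organ differed from stem in its forest difference by edgeR's test (adjusted p 0.81 for leaf and 0.25 for root).

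The lower transcript with the smallest p-value was Ag_11817. It had 74.4, 81.3 and 56.9 CPM in humid stems 1, 2 and 3 and 10.6, 8.31 and 6.03 CPM in arid stems 1, 2 and 3. The values within each forest were close and the gap between them was wide, at a log2 fold change of -3.09 with an SE of 0.35 (edgeR adjusted p 0.0019), and it was called under all 13 alternatives. In roots it had 37.7, 34.8 and 45.2 CPM in the humid and 23.7, 31.9 and 32.3 CPM in the arid forest. In leaves it had 13.8, 19.8 and 31.4 CPM in the humid and 16, 9.04 and 15.3 CPM in the arid forest. Its level was thus highest in the stem in humid seedlings and highest in the root in arid seedlings. On the log2 scale the forest difference in stem minus that in root was -2.67 (SE 0.46, edgeR adjusted p 0.048). Minus that in leaf it was -2.39 (SE 0.46), which was not called (edgeR adjusted p 0.33). The stem against root call is at the threshold. It was lost without humid stem 1, 2 or 3 (edgeR adjusted p 0.10, 0.11 and 0.12), arid stem 1 or 3 (0.070 and 0.073), humid root 1, 2 or 3 (0.080, 0.10 and 0.11) and arid root 1 or 3 (0.086 and 0.13), as well as without the filter (0.061) and with DESeq2 size factors (0.053). The adjusted p over all alternatives ran from 6.9e-05 to 0.13.

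**Figure D3:**
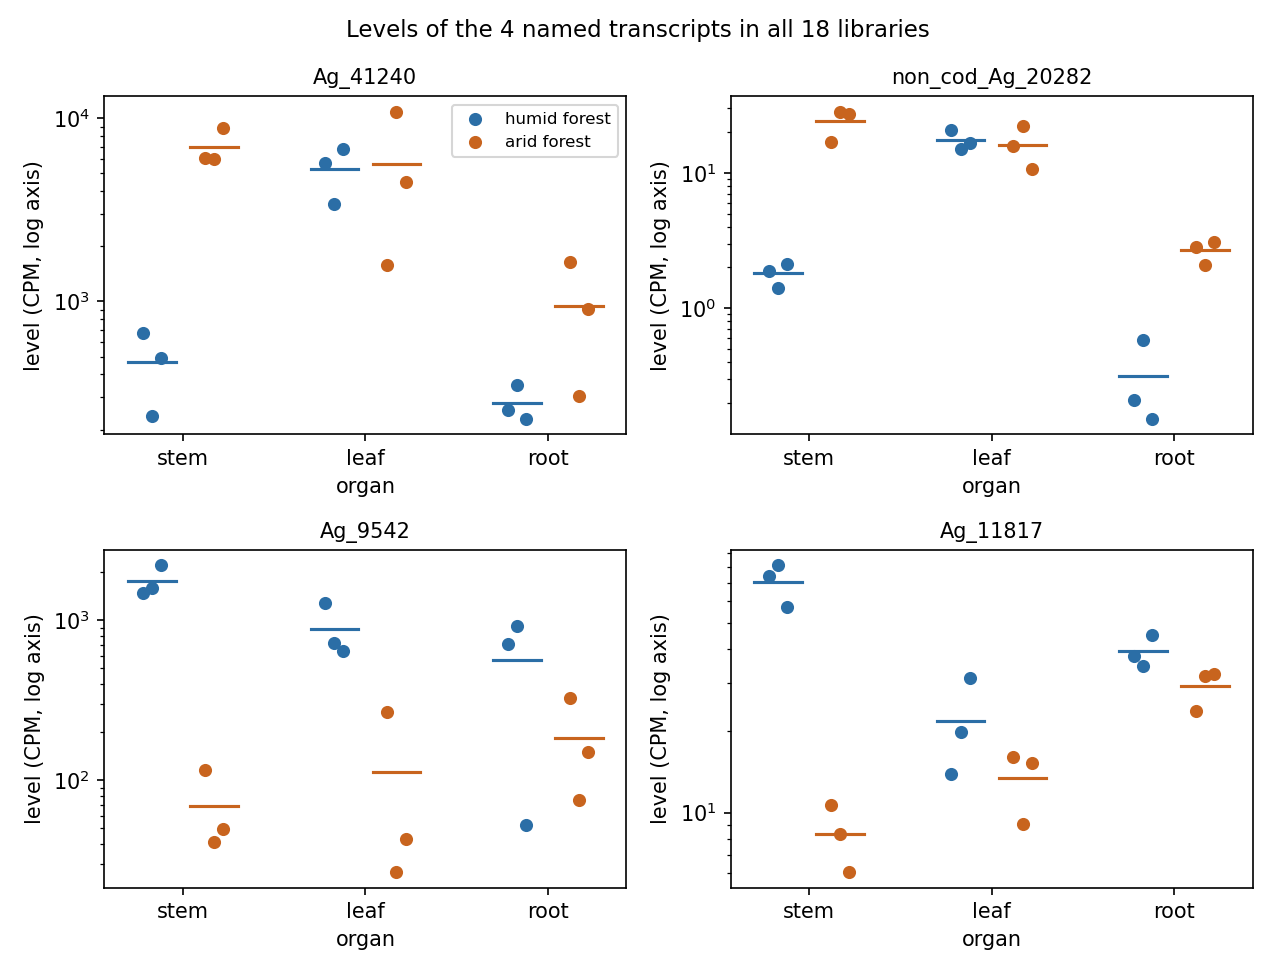
Level in CPM, on a log axis, of the 4 transcripts given by identifier, in stem, leaf and root of humid (blue) and arid (orange) seedlings; points are the 3 libraries of a group and lines their mean. The stem groups are apart in all 4 panels, and the leaf groups are apart for Ag_9542 and overlap for the other 3; in the 2 upper panels arid stems lie at leaf levels.

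Some transcripts were read in the stems of 1 forest only. Transcripts with at least 1 CPM in each humid stem and no read in any arid stem numbered 38, of which 23 were called lower by edgeR, beside 0.807% of all tested, and 24 carried the prefix non_cod, beside 32.5%. They were chosen for having no read in arid stems, so the calls are a description. Their median pooled level in humid stems was 1.86 CPM. Against the limit that 3 counts over the pooled arid stems set (0.0802 CPM), the median transcript was at least 23.2-fold lower in arid stems. Of the 38, only 4 had no read in the arid leaves and 2 no read in the arid roots. A single read in any of the 3 libraries of an organ counts here, so presence at a given level is not shown. The reverse, at least 1 CPM in each arid stem and no read in any humid stem, was found for 4 transcripts, of which 1 was called higher by edgeR.

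The makeup of the stem libraries was compared with 5 measures. Leaf-typical transcripts were those averaging 50 CPM or more in humid leaves and lower by 20-fold or more in humid roots, a definition that used no stem library and gave 256. They took 6.09%, 3.65% and 6.57% of the reads of arid stems 1, 2 and 3 and 1.32%, 2.5% and 2.47% of those of humid stems 1, 2 and 3. Every arid stem was above every humid stem. Leaf libraries of both forests held between 5.33% and 8.76%. Arid roots 1, 2 and 3 held 3.24%, 0.241% and 1.39%. Humid roots, in which the list was set to be low, held between 0.0863% and 0.112%. The mean was 5.44 ± 1.57% in arid and 2.1 ± 0.672% in humid stems (SD, n = 3), with p = 0.1 by an exact permutation test (two-sided), the lowest value possible for 3 against 3, and 0.125 after adjustment over the 5 measures. The median log2 fold change of the 256 was 1.05, beside 0.03 for all transcripts. Of the 256, 55 (21.5%) lay higher in every arid than in every humid stem, beside 9.54% of all tested, and 6 (2.34%) lay lower in every arid stem, beside 13.7%. By edgeR 6 of the 256 were called higher and 1 lower, beside 0.575% and 0.807% of all tested. Calls depend on level, and the 256 were chosen for a high level in humid leaves. Among all tested transcripts with a mean between 10 and 100 CPM in stems, 0.994% were called higher and 0.677% lower. At 100 CPM and more 3.54% were called higher and 0.536% lower, so nothing is read from the calls among the 256.

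The median leaf-typical transcript did not follow the sum in every library. Its level was 90.7, 30.4 and 77.7 CPM in arid stems 1, 2 and 3 and 20.6, 32.9 and 37.7 CPM in humid stems 1, 2 and 3, so that arid stem 2 lay among the humid stems. Relative to the leaf of the same seedling, the median was 77.8%, 20.9% and 44.1% in arid stems and 21.9%, 34% and 24.7% in humid stems 1, 2 and 3. Arid stems 1 and 3 were thus nearer to their own leaves than any other stem library. Of the 235 transcripts called higher, 6 were leaf-typical, beside 256 of all 40897 tested. This count also depends on level, and nothing is read from it. The part of leaf-typical transcripts in the stem differences was not tested.

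Root-typical transcripts, defined the other way round and 106 in number, took 0.32%, 1.18% and 0.108% of the reads of arid stems 1, 2 and 3 and between 0.134% and 0.166% in humid stems. Arid stem 2 stood out and arid stem 3 was below all humid stems. The groups overlapped, with p = 0.4 by the exact two-sided permutation test (n = 3 per forest, adjusted p 0.4), in a design that cannot go below 0.1. The difference of means was 0.383 percentage points, and 0.061 without arid stem 2. By edgeR 1 of the 106 was called higher and 2 lower, beside the same 0.575% and 0.807% of all tested. Of the 106, 11.3% lay higher in every arid than in every humid stem, beside 9.54% of all, and 8.49% lay lower in every arid stem, beside 13.7%.

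Fewer transcripts were detected in arid than in humid stems. At 1 CPM or more, before scaling, there were 30599, 30685 and 28614 transcripts in arid stems 1, 2 and 3 and 34624, 34536 and 34608 in humid stems 1, 2 and 3. The humid stems were nearly equal, and every arid stem was below all of them. The leaf and root libraries had between 27916 and 32907. The arid stems lay within this range, and the humid stems exceeded every other library. The reads were also less evenly spread, since the top 50% of them fell on 1907, 1472 and 1444 transcripts in arid stems 1, 2 and 3 and on 2558, 2778 and 2605 in humid stems. In leaf and root libraries this number was between 1694 and 2359, above arid stems 2 and 3 and below all humid stems. Reads on non_cod transcripts made up between 12.4% and 17% in arid and between 8.08% and 10.2% in humid stems. In leaf and root libraries they made up between 8.14% and 11.1%. In these 3 measures arid and humid stems did not overlap, each with p = 0.1 by the exact permutation test (n = 3 per forest) and 0.125 after adjustment. Thinning all stem libraries to the 6.11 M reads of humid stem 1 kept the direction of each, and the arid minus humid difference in transcripts at 1 CPM was then -4807, against -4623 at full depth.

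**Figure D4:**
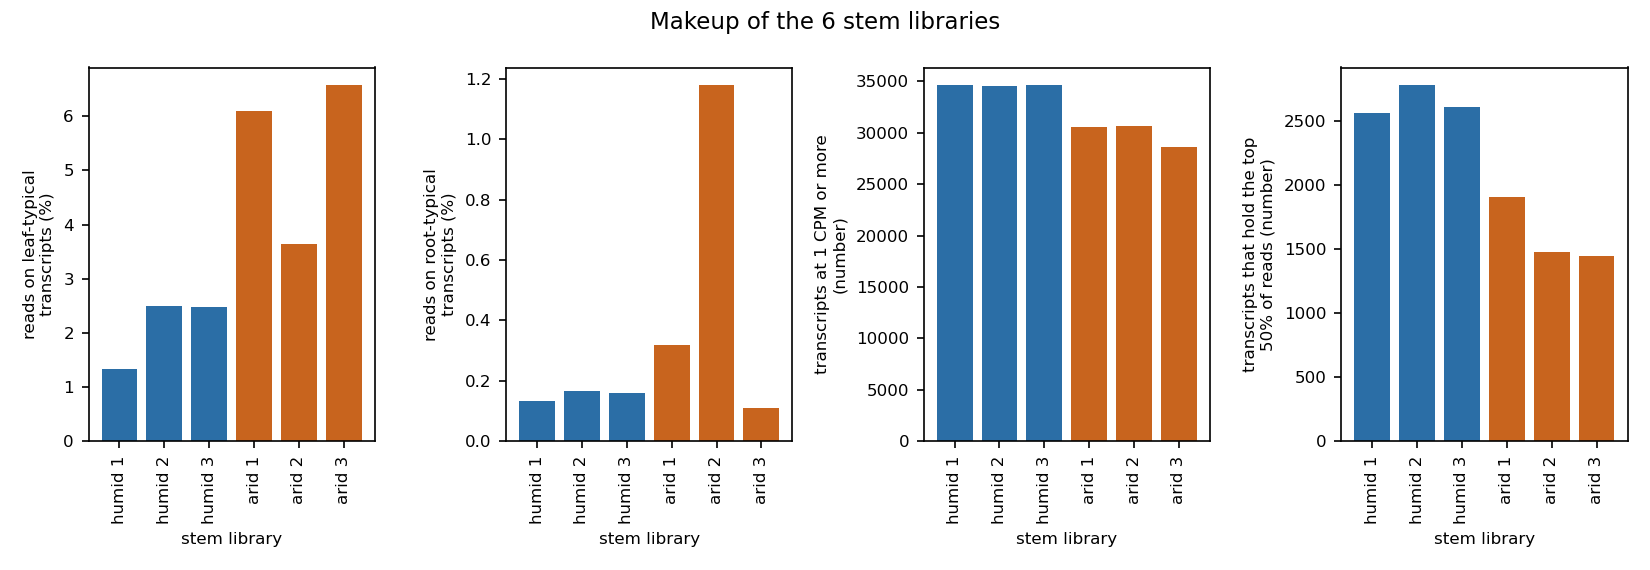
Makeup of the 6 stem libraries, 1 bar per library (blue: humid, orange: arid): percent of reads on leaf-typical and on root-typical transcripts, number of transcripts at 1 CPM or more, and number of transcripts that hold the top 50% of the reads. Arid and humid stems do not overlap in the first, the third and the last panel, and arid stem 2 alone stands at 1.18% for root-typical transcripts.

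The arid stems differed most from each other among the transcripts at large. The median SD of log2 levels over 3 libraries was 0.70 in arid and 0.40 in humid stems, and 74.1% of all tested transcripts had the larger SD in arid stems. For the 330 lower transcripts the medians were 0.36 and 0.36, and for the 235 higher ones 0.52 and 0.32. Of the 330, 177 averaged under 1 CPM in arid stems and 61 had no read there, where the pseudocount of 0.5 CPM narrows the SD. A test that calls transcripts with a small spread also chose these lists, so these SDs are a description. Of the 235 higher transcripts, arid stem 2 was the arid library nearest to the humid stems for 120 (51.1%), arid stem 1 for 59 and arid stem 3 for 56. Of the 330 lower ones it was nearest for 136 (41.2%), arid stem 1 for 52 and arid stem 3 for 81, with 61 ties.

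The levels in each arid stem were also taken for calls made without it. Without arid stem 2, 1500 transcripts were called higher, of which 1497 had levels here. Their median log2 difference from the humid stems was 1.44 in arid stems 1 and 3 and 0.41 in arid stem 2. The 2111 called lower, 2069 with levels, had medians of -2.03 and -0.54. The calls made without arid stem 1, 39 higher and 53 lower, had medians of 2.85 and -3.13 in the arid stems used and of 1.77 and -2.81 in arid stem 1. Those made without arid stem 3, 63 higher and 108 lower, had medians of 3.30 and -2.65 in the arid stems used and of 1.75 and -1.88 in arid stem 3. All these differences share the humid stems with the calls, which by itself brings some agreement of unknown size. The calls also chose transcripts on which the arid stems used agree, and the sets differ much in number. The differences are therefore given as values, and nothing is read from their sign or size.

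The transcripts called in stems were then followed in the other organs of the same seedlings. The leaf and root libraries took part in the filter, the scaling and the shared spread of the fit, but not in the stem difference itself. Of the 235 higher transcripts, 208 (88.5%) were also higher in arid than in humid leaves, with a median leaf log2 fold change of 0.63. Over all transcripts 52.7% were higher in arid leaves, with a median of 0.04. Of the 330 lower ones, 265 (80.3%) were lower in arid leaves, with a median of -0.61, beside 46.9% of all transcripts. In roots the signs were shared by 187 of the 235 (79.6%, median 0.58, beside 52.4% of all) and by 207 of the 330 (62.7%, median -0.32, beside 47.2%). The leaf and root medians were smaller than those in stems, on which the transcripts had been chosen. By edgeR none of the 565 was called in leaves. The share of all tested transcripts called in leaves is not given here, so nothing is read from this count. Of the 565, 166 had an unadjusted edgeR p under 0.05 in leaves with the sign of the stem. That p was found in leaves for 6.6% of all transcripts in either direction. In roots 26 of the 235 were called higher and 3 of the 330 lower, beside 1.37% and 0.249% of all tested. The leaf and root tests used the same spread per transcript as the stem test. Calls in stem favour a small spread, which by itself raises the counts by p in leaf and root to an unknown extent. Leaf, stem and root of a seedling are also not independent, so these counts do not add seedlings to the comparison.

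**Figure D5:**
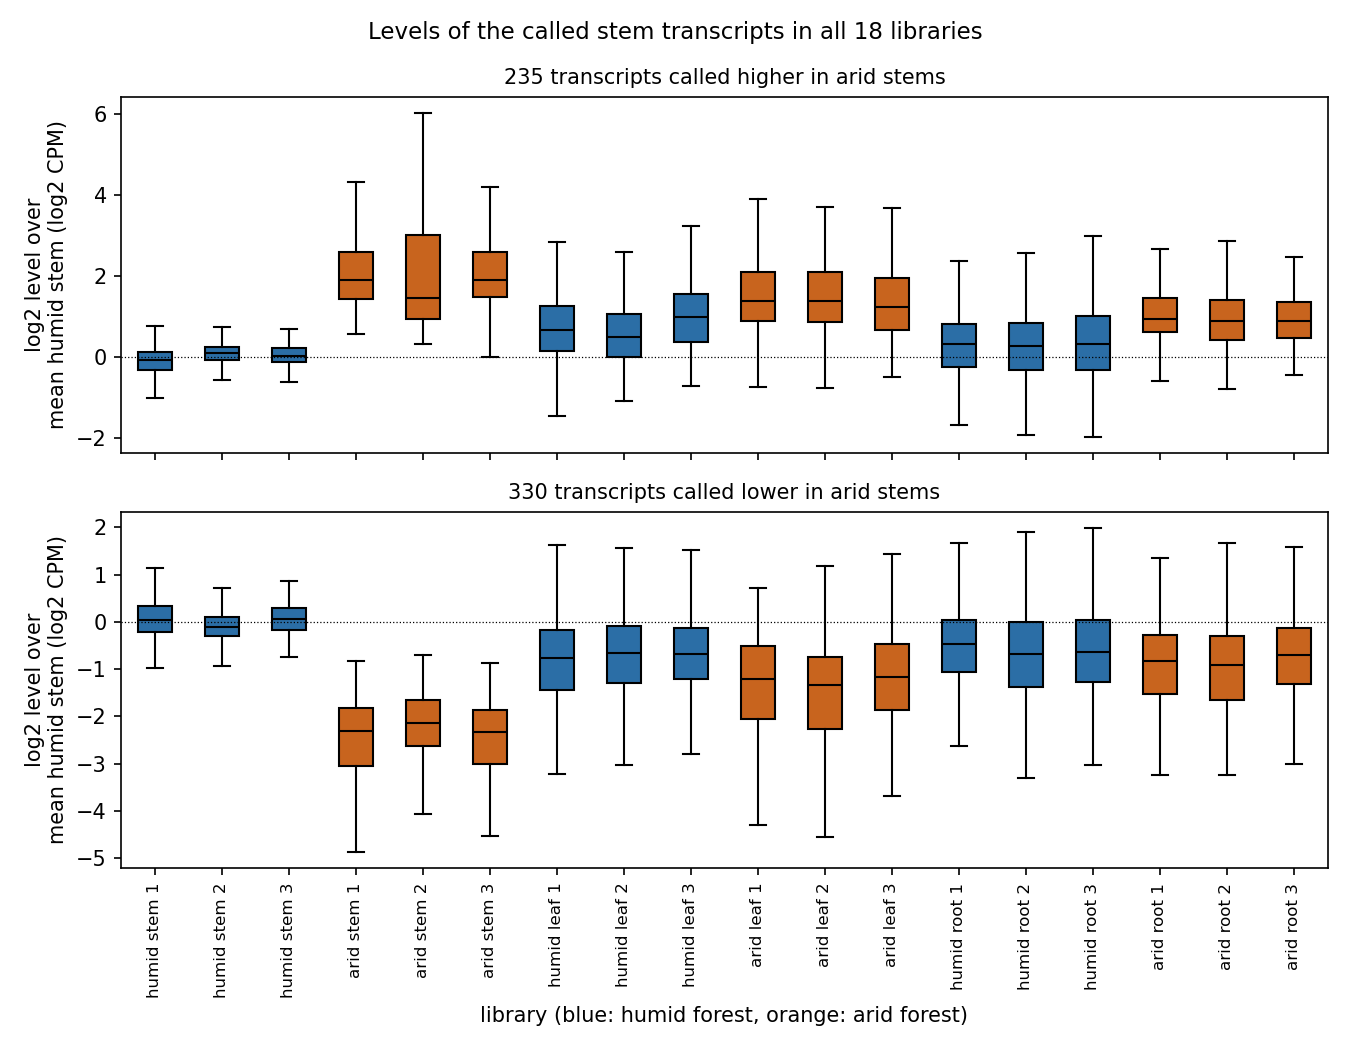
Log2 level relative to the mean of the humid stems for the 235 transcripts called higher (upper panel) and the 330 called lower (lower panel) in arid stems, in each of the 18 libraries; boxes show quartiles and median, whiskers reach to 1.5 times the box height. In the upper panel the medians of arid leaves (1.23 to 1.38) lie above those of humid leaves (0.49 to 0.99), and in the lower panel they lie below them.

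In reads, the 235 higher transcripts held 6.5%, 6.68% and 7.74% of arid stems 1, 2 and 3 and between 1.27% and 1.94% of humid stems. They held between 3.28% and 4.41% of arid leaves and between 2.32% and 3.52% of humid leaves, which overlapped. In roots they held between 2.07% and 2.79% in the arid and between 1.61% and 1.84% in the humid forest, which did not overlap. The 330 lower transcripts held 0.172%, 0.185% and 0.151% of arid stems 1, 2 and 3 and between 1.34% and 1.49% of humid stems. They held between 0.282% and 0.456% of arid leaves and between 0.75% and 0.767% of humid leaves, which did not overlap. In roots they held between 0.505% and 0.664% in the arid and between 0.729% and 0.914% in the humid forest, again without overlap.

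Whether the forest difference in stems differed from that in another organ was tested for every transcript in the same edgeR fit. Against leaf, no transcript was called by edgeR, with 2974 (7.27%) at an unadjusted p under 0.05, while limma with sample weights called 1 and DESeq2 called 276. Without arid stem 2 edgeR called 163 and without humid leaf 3 it called 1. Against root, edgeR called 28 transcripts (0.0685%), and 77 with the seedling as a block, of which 21 were among the 28. Of the 28, 15 were also called between forests in stems, 2 higher and 13 lower, and 13 in roots. Among all tested the calls were 1.38% in stems, and in roots 1.37% higher and 0.249% lower. The 28 were called on these same libraries, so the counts are a description. The 28 adjusted p-values lay between 0.0477 and 0.0493. The count fell to 1 or 0 without any 1 of the stem and root libraries except arid stem 2 and arid root 2, without which it was 1138 and 273.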

How the data were processed

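The authors deposited raw read counts per transcript, in 1 table and in 1 file per library with equal values. Per the submitters' processing notes, Bowtie 0.12.2 and edgeR were used, with no role given. Which reference and counting program were used is not given in the sources used here. Libraries were made from 0.5 µg of total RNA, per the labels' protocols. All table columns were matched to samples by name.

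Counts were tested with edgeR 4.0.16 under R 4.3.3 by the quasi-likelihood test, with trimmed mean of M-values scaling and a filter by group (minimum count 10, minimum total 15). All 18 libraries entered 1 fit of 6 group means with 12 residual degrees of freedom, and contrasts gave the forest difference in stem and its difference from leaf and root. P-values were adjusted over all tested transcripts. The procedure was tested on simulated counts. These had the same spread per transcript in every group, so they do not show how the fit handles the wider spread of arid stems. At least 98.5% of the reads of each stem library fell on tested transcripts. Log2 levels used a pseudocount of 0.5 CPM, and ratios to the own organ 0.1 CPM. A count of 0 allows up to 3 counts, between 0.18 and 0.491 CPM per stem library, for counting error only. Counts of replicate stems differed by far more than sampling noise (chi-square per degree of freedom of 16.4 or more). Exact permutation tests used scipy 1.17.1.

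The design text takes the organs from the same seedlings, and all 12 pairs of a stem and another organ of its seedling had correlated deviations from their group means (r from 0.139 to 0.376). The 4 identifiers were chosen among called transcripts without overlap and with at least 10 CPM in the higher forest, in each direction by the largest difference of mean level and by the smallest p. The comparison, lists and rules were chosen with earlier results of these data known. Alternatives were other scalings, no filter, DESeq2 1.42.0, limma 3.58.1 with sample weights, the stem libraries alone, a block, and leaving out each library.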

Additional observations from a re-analysis of the deposited data

Results flagged for a closer look

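The forest difference itself differed between stem and root for 28 transcripts by edgeR. Among the 4 transcripts given by identifier this held for Ag_11817, whose forest log2 fold change in stem differed from that in root by -2.67. Both stand at the threshold, as given above.

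A signal outside the tested transcripts was found in arid stem 1. In this library 1279 transcripts had at least 20 reads, with at most 2 reads in the other libraries together, and 1253 of them had none there. They had a median of 132 reads and a maximum of 770, and 57.7% carried the prefix non_cod, beside 37.6% of all listed transcripts. The same count was 0, 0 and 1 in humid stems 1, 2 and 3, 0 in arid stem 2 and 52 in arid stem 3. In the other organs it reached 122, in humid root 1. The leaf and the root of the same seedling had 0 each. Their origin was not tested.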

How the results depend on the processing

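Calls are those of edgeR at an adjusted p under 0.05 where no other tool is named. The 565 calls between forests in stem became 368 without the filter on low counts, 23 with the stem libraries alone, 907 by limma with sample weights and 3833 by DESeq2. They ranged from 32 to 3611 with 1 stem library left out. The limma calls were 553 higher and 354 lower, so that the larger side changed. The replicate number as a block gave 44 calls, and Ag_41240 and Ag_9542 lost theirs (adjusted p 0.11 and 0.091). Equal numbers do not mark the same seedling in both forests, and same-numbered arid and humid stems had deviations correlated at -0.119, -0.257 and 0.064. Of the 6 stems, humid stem 3 alone correlated best with its own number. The 0 calls of stem against leaf became 1 by limma and 276 by DESeq2, and ranged from 0 to 163 with 1 library left out. The 28 calls of stem against root became 0 without the filter (6841 at an unadjusted p under 0.05), 77 with the seedling as a block, 742 by limma and 2019 by DESeq2, and ranged from 0 to 1138 with 1 library left out. The causes were not tested. All 44 alternatives of the 5 makeup measures kept their direction. With 1 library left out, 3 against 2 libraries cannot go below an exact p of 0.2. Of 52 alternatives for the 4 identifiers, 40 kept the call, 12 lost it and none changed sign. The 4 were chosen for having no overlap in stems, so the kept sign is a description. Depth limits calls among scarce transcripts most in humid stem 1, which had 6.11 M reads.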
